A study of Mus musculus with 27 samples.

Results

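The 10 genes described here carry glucose into the cell and turn it into lactate: Slc2a1, Hk1, Hk2, Pfkl, Pfkp, Pfkfb3, Aldoa, Eno1, Pgk1 and Ldha. They were taken by name from 2 tables of RNA-seq levels, one with 23295 genes and one with 24247, and all 10 were found in both. The cells were NMuMG, an established epithelial line from mouse mammary gland, which TGF-β drives through an epithelial to mesenchymal transition (EMT). The first table holds parental cells at 0 h (untreated) and after 8 h and 24 h of TGF-β, with 2 libraries per time. The second holds, at the same times and also with 2 libraries each, control cells infected with a lentivirus for an irrelevant shRNA and KD cells infected with one against lamin B1, a protein of the nuclear lamina. Both kinds of infected cells were selected with puromycin, and whether they were pools or clones is not given in the sources used here. TGF-β was given at between 1 and 5 ng/ml. Lamin B1 ChIP-seq and ATAC-seq, which marks open chromatin, came from NMuMG cells at 0 h, 8 h and 24 h with 1 library per time, each ChIP library being a mix of parallel ChIPs, so peaks carry no replicate error. The authors sheared the ChIP chromatin by low sonication to enrich euchromatin, and report that heterochromatin was left out of sequencing by its fragment size. The lamin B1 peaks therefore describe the euchromatin fraction and not the whole nuclear lamina.

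In glycolysis, glucose enters through the transporter encoded by Slc2a1 (GLUT1) and is trapped as glucose 6-phosphate by hexokinases (Hk1, Hk2). Phosphofructokinase (Pfkl, Pfkp) commits it to the pathway, helped by fructose 2,6-bisphosphate made by the Pfkfb3 enzyme. Aldolase A (Aldoa), phosphoglycerate kinase (Pgk1) and enolase (Eno1) carry out lower steps, and lactate dehydrogenase A (Ldha) turns pyruvate into lactate. Many of these genes are known targets of the hypoxia factor HIF-1, whose binding core reads ACGTG or GCGTG.

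The promoters of the genes that fell most with TGF-β (Ldha, Pgk1) and of the hexokinase and regulator genes that rose in all 3 kinds of cells (Hk2, Pfkfb3) are shown as mm9 sequence, 250 bases before to 50 bases from the annotated start of the transcript numbered 001, 5′ to 3′ on the gene's strand. Capitals mark ACGTG and GCGTG on either strand, so that CACGT and CACGC are the same words read on the other strand, and CACGTG holds an overlapping match on each strand. The windows are chr7:54100959-54101258 (plus strand) for Ldha, chrX:103382189-103382488 (plus) for Pgk1, chr6:82724399-82724698 (minus) for Hk2 and chr2:11423645-11423944 (minus) for Pfkfb3.
Ldha: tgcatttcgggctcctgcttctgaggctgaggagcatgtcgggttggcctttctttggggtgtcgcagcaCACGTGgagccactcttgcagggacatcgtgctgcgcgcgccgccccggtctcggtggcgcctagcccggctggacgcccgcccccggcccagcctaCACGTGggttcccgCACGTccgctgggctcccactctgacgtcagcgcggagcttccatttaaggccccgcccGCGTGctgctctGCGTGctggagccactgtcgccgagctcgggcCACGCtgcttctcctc
Pgk1: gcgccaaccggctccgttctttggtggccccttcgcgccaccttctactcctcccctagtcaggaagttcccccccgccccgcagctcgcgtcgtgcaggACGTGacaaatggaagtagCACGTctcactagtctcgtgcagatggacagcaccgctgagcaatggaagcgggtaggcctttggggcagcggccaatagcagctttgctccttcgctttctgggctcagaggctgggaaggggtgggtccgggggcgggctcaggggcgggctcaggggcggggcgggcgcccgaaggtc
Hk2: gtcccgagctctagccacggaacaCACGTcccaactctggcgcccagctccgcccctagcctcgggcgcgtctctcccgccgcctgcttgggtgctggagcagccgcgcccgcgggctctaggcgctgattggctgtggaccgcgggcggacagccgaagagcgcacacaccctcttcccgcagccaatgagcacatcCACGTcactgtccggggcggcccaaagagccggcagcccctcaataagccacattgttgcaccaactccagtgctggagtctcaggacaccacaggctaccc
Pfkfb3: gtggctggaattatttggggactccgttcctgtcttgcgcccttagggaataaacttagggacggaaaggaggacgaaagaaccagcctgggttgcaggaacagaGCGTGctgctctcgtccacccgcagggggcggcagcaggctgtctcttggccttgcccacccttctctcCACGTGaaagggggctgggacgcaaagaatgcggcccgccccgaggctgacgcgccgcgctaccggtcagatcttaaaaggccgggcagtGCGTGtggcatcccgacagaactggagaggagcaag

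The Ldha window held 8 matches, counting each strand, which was more than any other of the 10 genes. The Pgk1 and Hk2 windows held 2 each, all ACGTG, and the Pfkfb3 window held 4. ACGTG was found in 7 of the 10 windows against 21.3% of 12681 protein-coding promoters of the same length, and GCGTG in 6 against 40.0%. At least 1 of the words stood in 9 windows, against 50.9% of all promoters, and the exception was Hk1. The Hk1 window lay at the gene's annotated 5′ end, and the inner start where its peaks stood (below) was not read. The GC content was 51.3% in the Hk1 window and ran from 61.7% (Pfkfb3) to 73.7% (Eno1) in the others, with a median over all promoters of 56.7%. The 12681 promoters were not limited to genes expressed in these cells. The part of GC content and expression in these shares was not tested. These matches describe letters in a window and were not tested as binding sites.

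On the genome (mm9, GENCODE M1) the transporter gene Slc2a1 lies at chr4:118781316-118809935. The hexokinase genes are Hk1 at chr10:61731603-61842656 and Hk2 at chr6:82675019-82724448. Pfkl lies at chr10:77449692-77472828, Pfkp at chr13:6579014-6648023 and Pfkfb3 at chr2:11393057-11423728. Of the genes of the lower steps, Aldoa is at chr7:133938748-133944265, Eno1 at chr4:149610830-149622988, Pgk1 at chrX:103382439-103399038 and Ldha at chr7:54096845-54110997.

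Treatment and knockdown were checked first. Fn1, which encodes fibronectin and is a known TGF-β target, rose by 3.06 in parental cells at 24 h (SE 0.0980) and by 1.29 in control cells at 8 h (SE 0.297), as differences in log2(FPKM + 1), the scale of all differences below. Lmnb1 measured 29.2 and 36.5 FPKM in control cells at 0 h and 9.01 and 9.27 FPKM in KD cells, and it was lower in KD cells by 1.73 at 0 h and 1.90 at 8 h (adjusted p = 0.000573 and 0.000189), and also at 24 h (adjusted p = 0.000901). Lmnb1 also fell without any shRNA, by 0.95 in parental cells at 24 h (adjusted p = 6.38e-06). Of the 7 luminal epithelial markers fixed for the check, 5 or 6 exceeded 1 FPKM in each group and Cldn3 was listed at 0 in 7 of the 9 groups, while the 10 markers of immune, endothelial, stromal and fat cells summed to between 1.37 and 5.33 FPKM. In parental cells that sum went from between 2.63 and 2.73 FPKM at 0 h to between 5.25 and 5.33 FPKM at 24 h, and both of its tested genes were called higher. The 5 basal markers summed to between 3.19 and 3.56 FPKM in parental cells at 0 h and between 7.47 and 8.80 FPKM at 8 h, and went from between 4.39 and 4.90 to between 27.7 and 27.8 FPKM in control cells and from between 1.86 and 1.93 to between 24.9 and 30.6 FPKM in KD cells. At 24 h they summed to between 4.56 and 4.92 FPKM in parental, 3.22 and 3.31 FPKM in control and 5.29 and 5.35 FPKM in KD cells. In each group 1 or 2 of the 5 reached a mean of 1 FPKM, with 1 in control and 1 in KD cells at 8 h, so these sums rest on few genes. Only 2 basal markers were tested, of which 1 was called higher at 8 h in parental and control cells and 2 in KD cells. Krt14, a basal keratin, rose at 8 h by 2.01 in parental, 2.39 in control and 3.39 in KD cells. The part of these markers in the differences below was not tested. KD replicate 2 at 24 h stood apart from its partner, with Fn1 at 942 against 415 FPKM, Lmnb1 at 7.52 against 4.37 FPKM and the small nucleolar RNA Snord47 at 238432 against 65549 FPKM. Genes of small nucleolar RNAs and microRNAs held between 21.6% and 31.5% of the summed FPKM in parental libraries and between 7.27% and 43.0% in shRNA libraries, and their part in the differences below was not tested.

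By level, which FPKM gives per length, Ldha led in all 9 groups, from 502 FPKM in parental cells at 24 h to 1449 FPKM in parental cells at 0 h. Pgk1, Aldoa and Eno1 filled the next 3 places in every group, followed by Hk1, Pfkl and Slc2a1, then Hk2, with Pfkp and Pfkfb3 the lowest. Neighbouring places overlapped between libraries for Pgk1 and Aldoa in control cells at 0 h and in KD cells at 8 h, for Aldoa and Eno1 in KD cells at 0 h, for Pgk1 and Eno1 in KD cells at 24 h, for Hk1 and Pfkl in parental cells at 8 h, and for Slc2a1 and Pfkl in parental cells at 24 h. The 10 genes together summed to between 1873 and 3761 FPKM in the parental libraries and between 1854 and 3200 FPKM in the shRNA libraries. Near-identical gene copies make the levels of Aldoa, Eno1, Pgk1 and Ldha uncertain where reads could be split. The copies listed separately were low, with Aldoart1 between 0.553 and 1.24 FPKM and Eno1b at most 5.72e-05 FPKM. Hk1os, antisense to Hk1 and listed in the shRNA table only, measured between 0.354 and 2.16 FPKM, and the sources used here do not say whether counting used strand.

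**Figure D1:**
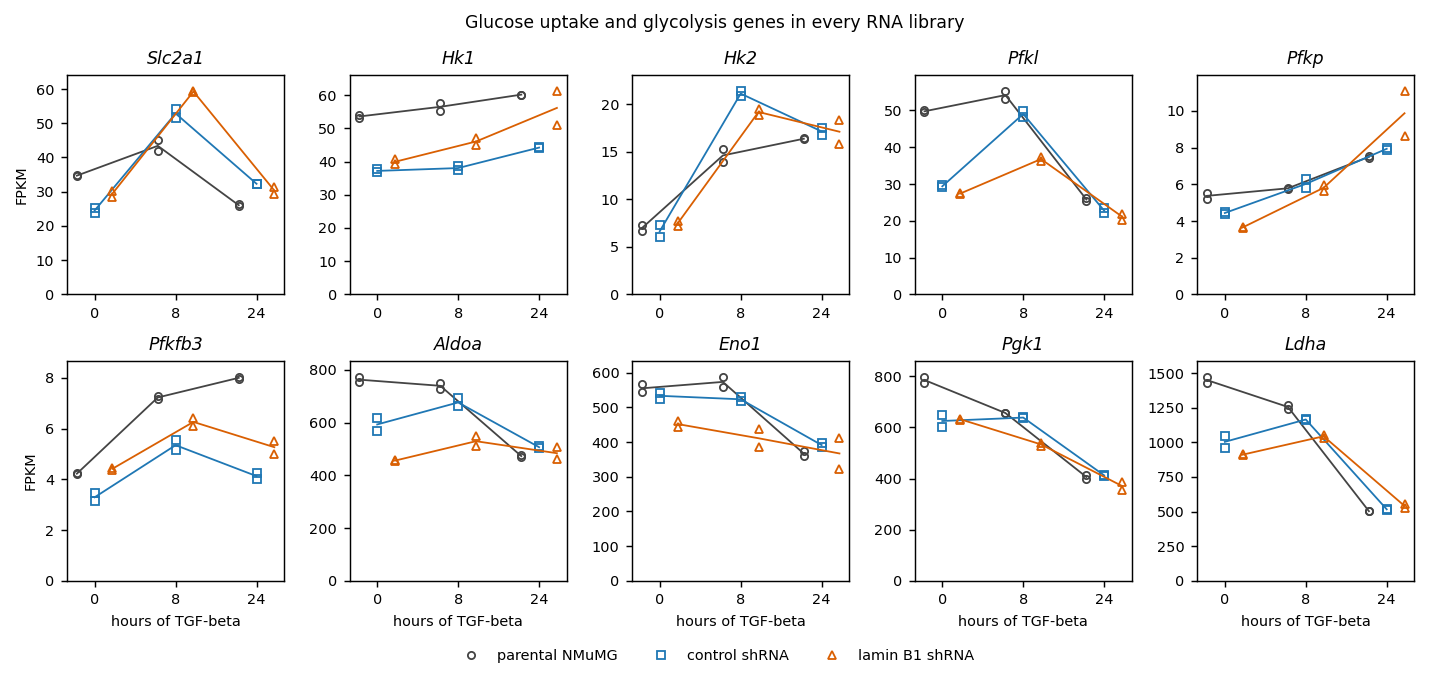
FPKM of each gene (vertical axes, each starting at 0) at 0, 8 and 24 h of TGF-β (horizontal axes, evenly spaced), with 1 point per library and lines through the means of 2. Ldha, Pgk1, Aldoa, Eno1 and Pfkl have parental values at 24 h below those at 0 h, while Hk2, Pfkfb3 and Pfkp have parental values at 24 h above them.

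In parental cells after 24 h, Ldha, Pgk1, Aldoa and Eno1 of the lower steps fell, and so did Slc2a1 and Pfkl, while both hexokinases, Pfkp and Pfkfb3 rose. All 10 genes passed the test (4 higher, 6 lower), where 70.5% of the 11309 genes tested were called. In bulk RNA, fewer cells with a transcript and less of it per cell cannot be told apart. The labels do not say that libraries of a group came from separate cultures. The p-values weigh each difference against the spread between libraries within the groups fitted together, which may not be the spread between cultures. The median difference of the 10 genes was -0.50 and that of all genes tested -0.02.

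Ldha measured 1471 and 1428 FPKM at 0 h, 1239 and 1271 FPKM at 8 h, then 503 and 502 FPKM at 24 h. The libraries of the 3 times did not overlap, and most of the fall came after 8 h. It fell by 1.53 at 24 h (SE 0.0419, adjusted p = 6.18e-07), the largest difference among the 10 genes in any comparison apart from Hk2 in control cells at 8 h. Pgk1, which makes ATP in the lower part of the pathway, measured 797 and 774 FPKM at 0 h, 655 and 658 FPKM at 8 h, then 413 and 399 FPKM at 24 h. It fell by 0.26 at 8 h (SE 0.0404, adjusted p = 0.00174) and by 0.95 at 24 h (SE 0.0404, adjusted p = 2.26e-06).

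Aldoa and Eno1 fell later. Aldoa measured 773 and 753 FPKM at 0 h, 728 and 752 FPKM at 8 h, then 478 and 468 FPKM at 24 h. Its difference at 8 h was -0.04 (adjusted p = 0.384), with the sign turned by quantile normalization (0.09), and at 24 h it fell by 0.69 (SE 0.0408, adjusted p = 8.31e-06). Eno1 measured 567 and 543 FPKM at 0 h, 560 and 587 FPKM at 8 h, then 373 and 360 FPKM at 24 h. Its libraries at 0 h and 8 h overlapped, and at 24 h it fell by 0.60 (SE 0.0457, adjusted p = 2.72e-05).

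Hk2, the inducible hexokinase, rose early and stayed high. It measured 6.68 and 7.28 FPKM at 0 h, 15.3 and 13.9 FPKM at 8 h, then 16.4 and 16.3 FPKM at 24 h. The rise was 0.97 at 8 h (SE 0.0624, adjusted p = 5.57e-05) and 1.12 at 24 h (SE 0.0624, adjusted p = 6.31e-06). Hk1, the broadly expressed hexokinase, measured 53.0 and 54.2 FPKM at 0 h and 60.1 FPKM in both libraries at 24 h, a rise of 0.16 (SE 0.0390, adjusted p = 0.00743). The ratio of Hk2 to Hk1 levels went from 0.126 and 0.134 at 0 h to 0.273 and 0.272 at 24 h.

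The phosphofructokinase genes moved in opposite directions. Pfkl, the liver form, measured 49.6 and 50.01 FPKM at 0 h, 53.0 and 55.3 FPKM at 8 h, then 25.3 and 26.3 FPKM at 24 h. It fell by 0.92 at 24 h (SE 0.0415, adjusted p = 2.81e-06), after a rise of 0.12 at 8 h (adjusted p = 0.0448) that was lost without parental 0 h replicate a (adjusted p = 0.145) or b (adjusted p = 0.110), without parental 8 h replicate b (0.09, adjusted p = 0.164), with no filter (adjusted p = 0.0524) and in a fit of only the groups compared (adjusted p = 0.0684). Pfkp, the platelet form, measured 5.55 and 5.195 FPKM at 0 h against 7.54 and 7.46 FPKM at 24 h, a rise of 0.42 (SE 0.0543, adjusted p = 0.000391). The ratio of Pfkp to Pfkl levels was 0.112 and 0.104 at 0 h and 0.298 and 0.283 at 24 h. Pfkfb3, whose product raises phosphofructokinase activity, went from 4.21 and 4.24 FPKM through 7.28 and 7.18 FPKM to 8.03 and 7.98 FPKM, a rise of 0.66 at 8 h (adjusted p = 9.32e-05) and of 0.79 at 24 h (adjusted p = 1.13e-05).

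Slc2a1 went up and then down. It measured 34.5 and 34.9 FPKM at 0 h, 45.0 and 41.8 FPKM at 8 h, then 26.3 and 25.8 FPKM at 24 h. The 3 times did not overlap, with a rise of 0.31 at 8 h (SE 0.0457, adjusted p = 0.00130) and a fall of 0.40 at 24 h against 0 h (SE 0.0457, adjusted p = 0.000199).

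At 8 h in parental cells 4 of the 10 genes were higher (Slc2a1, Hk2, Pfkl, Pfkfb3) and 2 lower (Pgk1, Ldha), where 54.5% of all genes tested were called. Between 8 h and 24 h 7 were called against 51.8% of all genes. Pfkp was the gene that rose in that interval, by 0.32 (adjusted p = 0.00248), and Slc2a1, Pfkl, Aldoa, Eno1, Pgk1 and Ldha fell, by between 0.64 and 1.32.

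The other genes of the pathway, from lists chosen by name, are read against all 11309 genes, of which 4194 were lower and 3781 higher at 24 h (70.5% called). Of 17 tested further glycolysis genes in parental cells 12 fell and 3 rose, and their median difference was -0.52. Tpi1 (triosephosphate isomerase) fell by 0.94 and Gapdh by 0.76, while Pfkfb4, a relative of Pfkfb3, went from 1.86 and 2.04 FPKM at 0 h to 17.1 and 15.4 FPKM at 24 h, a rise of 2.55 (SE 0.185, adjusted p = 2.14e-05). In the pentose phosphate list 8 of 10 fell and none rose (limma, 0 also at unadjusted p under 0.05), led by G6pdx, its first enzyme, which fell by 1.21. In the tricarboxylic acid cycle list 17 of 18 fell and none rose (0 also at unadjusted p under 0.05), led by Sdhd, a subunit of succinate dehydrogenase, which fell by 0.82. In the pyruvate and lactate list 6 of 16 tested genes fell, 1 rose and 9 were not called, with a median difference of -0.08. Among the 6, Slc16a1, a lactate transporter, fell by 1.30, and Pdk1, a kinase that holds back pyruvate dehydrogenase, fell by 1.39. Of the hypoxia targets outside glycolysis 6 of 13 were higher and 4 lower, so that 10 of 13 were called, a share near that of all genes, with Vegfa higher by 1.68, Bhlhe40 higher by 1.92 and Egln3 lower by 3.03.

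**Figure D2:**
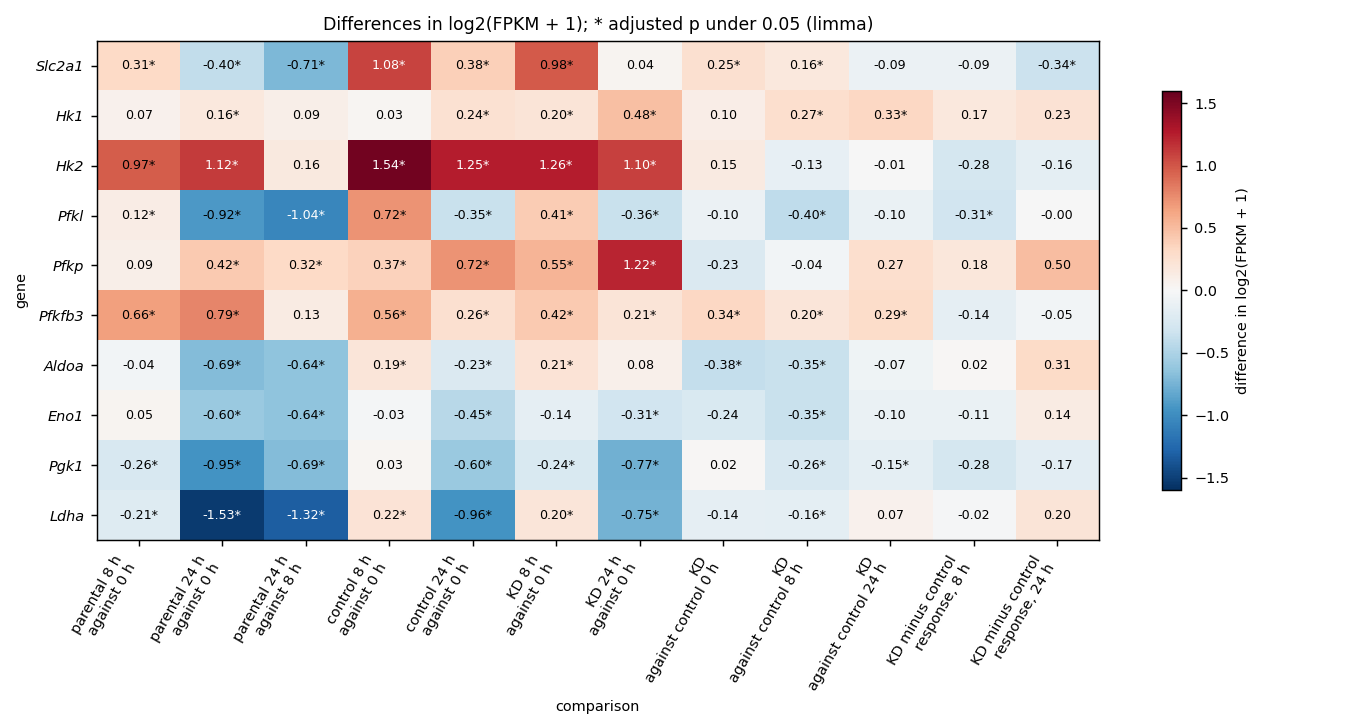
Differences in log2(FPKM + 1) for each gene (rows) in 12 comparisons (columns), with an asterisk where the adjusted p of limma is under 0.05. Hk2 is positive in all 7 comparisons of times and Ldha negative at 24 h against 0 h in all 3 kinds of cells, while Ldha in KD against control cells at 8 h (-0.16) turns to 0.15 with quantile normalization.

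In the infected cells most of the genes were higher at 8 h. At 24 h Ldha, Pgk1, Pfkl and Eno1 were called lower and Hk1, Hk2, Pfkp and Pfkfb3 higher in both kinds of cells, though some of these calls were lost in alternative runs (below). At 8 h 7 of the 10 genes were higher in control cells and none lower (0 also at unadjusted p under 0.05), where 64.3% of the 11450 genes tested were called, and in KD cells 8 were higher and 1 lower, where 67.8% were called. At 24 h 5 were higher and 5 lower in control cells (70.7% of all genes called, and Aldoa among the 5 lower is lost with median-ratio scaling), and 4 were higher and 4 lower in KD cells (71.9%, and 6 higher and 3 lower with median-ratio scaling). In this table the median of all genes shifted with treatment, by -0.14 and -0.13 in control cells and by -0.13 and -0.10 in KD cells at 8 h and 24 h, so the distance from that median is given beside most differences of the 10 genes between times, and differences of other genes are given without it. Control and KD responses have separate untreated libraries.

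Slc2a1 rose from 23.8 and 25.3 FPKM at 0 h to 54.2 and 51.6 FPKM at 8 h in control cells, and measured 32.3 FPKM in both libraries at 24 h. In KD cells it went from 28.6 and 30.3 FPKM to 59.1 and 59.5 FPKM and back to 31.3 and 29.4 FPKM. The rise at 8 h was 1.077 in control cells (SE 0.0499, 1.22 from the median, adjusted p = 3.44e-07) and 0.98 in KD cells (SE 0.0499, 1.12 from the median, adjusted p = 4.56e-07). At 24 h control cells kept a rise of 0.38 (0.52 from the median, adjusted p = 0.000116), while in KD cells the libraries of 0 h and 24 h overlapped (0.04, 0.14 from the median, adjusted p = 0.480, and 0.0490 with median-ratio scaling).

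Hk2 rose in both kinds of infected cells. It measured 5.99 and 7.30 FPKM in control cells at 0 h, 21.4 and 20.8 FPKM at 8 h, then 16.7 and 17.6 FPKM at 24 h. In KD cells it measured 7.18 and 7.73 FPKM, 18.9 and 19.5 FPKM, and 15.8 and 18.4 FPKM. The rise at 8 h was 1.54 in control cells (SE 0.0901, 1.68 from the median, adjusted p = 1.33e-06) and 1.26 in KD cells (SE 0.0901, 1.39 from the median, adjusted p = 3.41e-06).

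Hk1 was higher at 24 h than at 0 h in both. Control cells went from 37.6 and 36.7 FPKM to 44.0 and 44.4 FPKM, a rise of 0.24 (0.38 from the median, adjusted p = 0.0152) that was lost without control 0 h replicate 2 (adjusted p = 0.0645) and without control 24 h replicate 1 (adjusted p = 0.0528) or 2 (adjusted p = 0.0650). KD cells went from 40.7 and 39.1 FPKM through 45.0 and 47.1 FPKM to 51.0 and 61.3 FPKM, a rise of 0.48 at 24 h (SE 0.0735, 0.58 from the median, adjusted p = 0.000349). The rise of 0.20 in KD cells at 8 h (0.33 from the median, adjusted p = 0.0369) was lost without any 1 of the 4 KD libraries at 0 h and 8 h (adjusted p from 0.0668 to 0.160) and with no filter (adjusted p = 0.0608).

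Pfkl peaked at 8 h. Control cells measured 29.7 and 29.1 FPKM at 0 h, 49.98 and 48.1 FPKM at 8 h, then 23.4 and 22.2 FPKM at 24 h, and KD cells 27.3 and 27.5 FPKM, 36.3 and 37.2 FPKM, and 20.4 and 21.97 FPKM. The rise at 8 h was 0.72 in control cells (SE 0.0467, 0.86 from the median, adjusted p = 2.53e-06) and 0.41 in KD cells (SE 0.0467, 0.54 from the median, adjusted p = 5.85e-05). At 24 h it was below the untreated level in both, by 0.35 in control cells and by 0.36 in KD cells (-0.22 and -0.26 from the median).

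Pfkp climbed to 24 h. Control cells went from 4.39 and 4.49 FPKM through 6.26 and 5.78 FPKM to 7.88 and 7.99 FPKM, a rise of 0.72 at 24 h (SE 0.0936, 0.85 from the median, adjusted p = 0.000122). KD cells went from 3.66 and 3.64 FPKM through 5.63 and 5.99 FPKM to 8.65 and 11.1 FPKM, a rise of 1.22 (SE 0.0936, 1.32 from the median, adjusted p = 3.60e-06). The higher of the 24 h values belongs to KD replicate 2. The call of Pfkp in control cells at 8 h (0.37, 0.51 from the median, adjusted p = 0.00763) was lost without control 8 h replicate 1 (0.32, adjusted p = 0.0543). In each kind of cell the ratio of Pfkp to Pfkl levels was highest at 24 h, with 0.337 and 0.360 in control cells and 0.425 and 0.505 in KD cells.

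Pfkfb3 was highest at 8 h. Control cells measured 3.46 and 3.13 FPKM at 0 h, 5.55 and 5.15 FPKM at 8 h, then 4.26 and 3.995 FPKM at 24 h, and KD cells 4.39 and 4.45 FPKM, 6.41 and 6.12 FPKM, and 5.02 and 5.52 FPKM. It rose at 8 h by 0.56 in control cells (0.71 from the median, adjusted p = 8.38e-05) and by 0.42 in KD cells (0.55 from the median, adjusted p = 0.000412). The smaller rises at 24 h did not keep their calls in every alternative run. That of 0.26 in control cells (0.39 from the median, adjusted p = 0.00661) was lost without control 24 h replicate 1 (0.22, adjusted p = 0.0521), and that of 0.21 in KD cells (0.31 from the median, adjusted p = 0.0177) without KD 0 h replicate 1 (adjusted p = 0.0764) or 2 (adjusted p = 0.0593) or KD 24 h replicate 2 (0.15, adjusted p = 0.0882) and in a fit of only the groups compared (adjusted p = 0.0654).

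**Figure D3:**
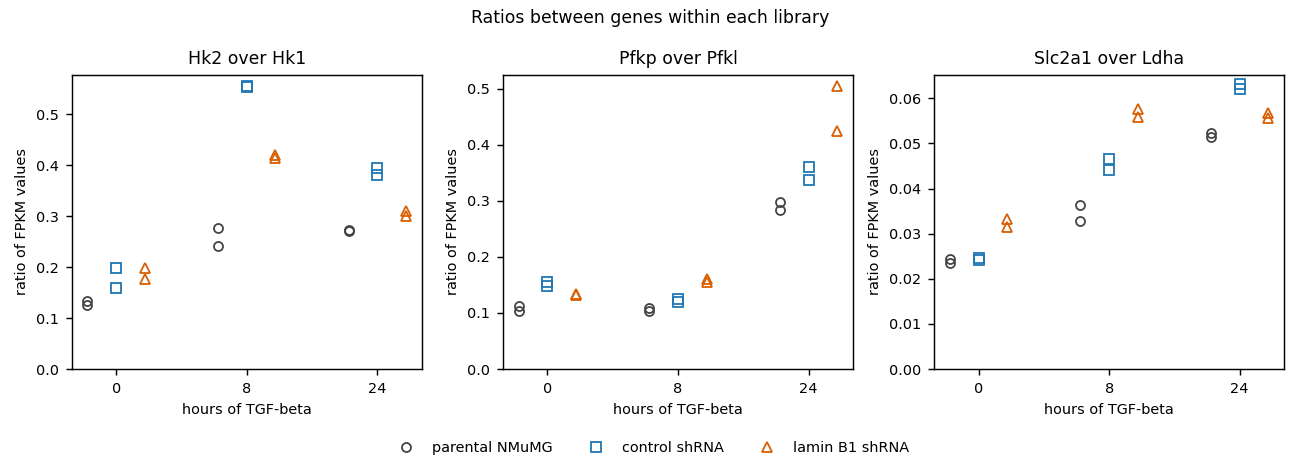
Ratios of FPKM values between genes within each library (vertical axes, starting at 0) against hours of TGF-β (evenly spaced), with 1 point per library. Pfkp over Pfkl is highest at 24 h in all 3 kinds of cells, and Hk2 over Hk1 is above its 0 h values at 8 h and 24 h.

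In control cells none of the 4 genes of the lower steps was called lower at 8 h (limma, 0 also at unadjusted p under 0.05), and all 4 were called lower at 24 h. Ldha measured 962 and 1044 FPKM at 0 h, 1162 and 1168 FPKM at 8 h, then 511 and 521 FPKM at 24 h in control cells, and 908 and 913 FPKM, 1056 and 1031 FPKM, and 553 and 528 FPKM in KD cells. It rose at 8 h by 0.22 in control cells (0.36 from the median, adjusted p = 0.00312), which quantile normalization reduced to 0.11 (adjusted p = 0.225), and by 0.20 in KD cells (0.33 from the median, adjusted p = 0.00487). At 24 h it fell by 0.96 in control cells (SE 0.0464, -0.82 from the median, adjusted p = 2.21e-07) and by 0.75 in KD cells (SE 0.0464, -0.65 from the median, adjusted p = 8.56e-07). Parental cells differed in sign at 8 h, where Ldha fell by 0.21 (SE 0.0419, adjusted p = 0.00543); the difference between the tables was not tested, as they were normalized separately.

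Pgk1 measured 603 and 648 FPKM at 0 h, 642 and 636 FPKM at 8 h, then 415 and 410 FPKM at 24 h in control cells, with 0 h and 8 h overlapping. Its difference at 8 h in control cells was 0.03 (0.17 from the median, limma adjusted p = 0.601). With median-ratio scaling it was called higher (0.18, adjusted p = 0.0201). In KD cells it measured 630 and 634 FPKM, 540 and 527 FPKM, and 387 and 355 FPKM. It fell at 24 h by 0.60 in control cells (SE 0.0498, -0.46 from the median, adjusted p = 6.34e-06) and by 0.77 in KD cells (SE 0.0498, -0.67 from the median, adjusted p = 1.17e-06). The fall at 8 h in KD cells was 0.24 (adjusted p = 0.00211) and -0.11 from the median, and with median-ratio scaling it was -0.10 (adjusted p = 0.140).

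Aldoa measured 618 and 568 FPKM in control cells at 0 h, 692 and 662 FPKM at 8 h, then 510 and 504 FPKM at 24 h, and in KD cells 453 and 459 FPKM, 511 and 548 FPKM, and 461 and 507 FPKM. The rise at 8 h was 0.19 in control cells (0.33 from the median, adjusted p = 0.0217), lost with quantile normalization (0.09, adjusted p = 0.195), in a fit of only the groups compared (adjusted p = 0.0529) and without control 0 h replicate 2 (0.13, adjusted p = 0.132) or control 8 h replicate 1 (0.16, adjusted p = 0.115), and 0.21 in KD cells (0.35 from the median, adjusted p = 0.0118), lost without KD 0 h replicate 1 (0.20, adjusted p = 0.0599) and KD 8 h replicate 2 (0.16, adjusted p = 0.0850). The fall of 0.23 in control cells at 24 h (adjusted p = 0.00878) lay only -0.09 from the median and was lost with median-ratio scaling (-0.07, adjusted p = 0.284), with quantile normalization (-0.10, adjusted p = 0.135) and without control 0 h replicate 1 (-0.16, adjusted p = 0.0603). In KD cells the difference at 24 h was 0.08 (0.19 from the median, adjusted p = 0.235), and with median-ratio scaling it was called (0.18, adjusted p = 0.0171).

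Eno1 measured 525 and 542 FPKM in control cells at 0 h, 529 and 518 FPKM at 8 h, then 396 and 386 FPKM at 24 h, and in KD cells 443 and 461 FPKM, 386 and 436 FPKM, and 322 and 413 FPKM. It fell at 24 h by 0.45 in control cells (SE 0.103, -0.31 from the median, adjusted p = 0.00383). The fall of 0.31 in KD cells (-0.21 from the median, adjusted p = 0.0228) was lost without KD 0 h replicate 1 (adjusted p = 0.0565) or 2 and without KD 24 h replicate 1 (-0.13, adjusted p = 0.124), and also with median-ratio scaling (-0.21, adjusted p = 0.0960) and in a fit of only the groups compared (adjusted p = 0.0970). Its values at 8 h against 0 h were -0.03 in control cells (0.12 from the median) and -0.14 in KD cells (-0.0079 from the median), neither past the threshold, and median-ratio scaling made them 0.12 and 0.0027.

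The other lists of the shRNA table are read against all 11450 genes, of which 2223 were higher and 5137 lower in control cells at 8 h (64.3% called) and 2629 and 5132 in KD cells (67.8%), and at 24 h 2924 and 5169 in control cells (70.7%) and 3277 and 4959 in KD cells (71.9%). Of 15 further glycolysis genes tested, 6 were higher and 6 lower at 8 h in control cells, and 3 higher and 9 lower at 24 h. Pfkfb4 measured 0.954 and 0.979 FPKM at 0 h against 17.4 and 17.2 FPKM at 8 h in control cells, a rise of 3.22 (SE 0.0471). The hypoxia targets outside glycolysis were higher at 8 h for 9 of 13 in control cells and 10 of 13 in KD cells, with 2 and 1 lower, Vegfa higher by 2.48 and 2.46, and Egln3 lower by 2.76 and 3.21. In the tricarboxylic acid cycle list all 18 genes were lower at 24 h in control cells and 15 in KD cells. Hif1a, which encodes a subunit of HIF-1, was higher at 8 h by 0.46 in control cells (adjusted p = 0.00112) and by 0.74 in KD cells (adjusted p = 5.62e-05).

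KD and control cells were compared at each time to ask what reduced lamin B1 goes with. Before treatment 3 of the 10 genes differed, where 19.7% of all genes were called. Slc2a1 was higher in KD cells by 0.25 (SE 0.0499, adjusted p = 0.00976) and Pfkfb3 by 0.34 (SE 0.0654, adjusted p = 0.00949), and Aldoa was lower by 0.38 (SE 0.0606, adjusted p = 0.00426). Aldoa kept its call in every alternative run. Slc2a1 was lost without KD 0 h replicate 2 (0.21, adjusted p = 0.0843) and in a fit of only the groups compared (adjusted p = 0.0611), and Pfkfb3 without KD 0 h replicate 1 (0.35, adjusted p = 0.0636) or 2 (0.33, adjusted p = 0.0678). Ldha became called without control 0 h replicate 1 (-0.20, adjusted p = 0.0188), from a difference of -0.14 (adjusted p = 0.0687) that quantile normalization brought to 0.0060.

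At 8 h KD cells had lower Pfkl, Aldoa, Eno1, Pgk1 and Ldha and higher Slc2a1, Hk1 and Pfkfb3. These 8 calls compare with 35.8% of all genes. They became fewer when any 1 of the 4 libraries was left out, and so did the calls of all genes. Pfkl, at 36.3 and 37.2 FPKM in KD cells and 49.98 and 48.1 FPKM in control cells, was lower by 0.40 (SE 0.0467, adjusted p = 0.000435), which held in every alternative run. Aldoa was lower by 0.35 (SE 0.0606, adjusted p = 0.00281) and Pgk1 by 0.26 (SE 0.0498, adjusted p = 0.00462), and both held without each library and were lost with quantile normalization (-0.15, adjusted p = 0.0520, and -0.05, adjusted p = 0.630). The other 5 were smaller in size or more variable. Eno1 was lower by 0.35 (SE 0.103, adjusted p = 0.0277) and was lost without control 8 h replicate 1 (adjusted p = 0.116) or 2 (adjusted p = 0.0926) and KD 8 h replicate 1 (-0.26, adjusted p = 0.164), with quantile normalization (-0.22, adjusted p = 0.0631) and with no filter (adjusted p = 0.0601). Slc2a1 (0.16, adjusted p = 0.0329), Hk1 (0.27, adjusted p = 0.0214), Pfkfb3 (0.20, adjusted p = 0.0460) and Ldha (-0.16, adjusted p = 0.0276) were each lost without any 1 of these 4 libraries, with adjusted p from 0.0591 to 0.234, and Ldha turned to 0.15 with quantile normalization (adjusted p = 0.121) and was lost with median-ratio scaling (adjusted p = 0.0661) and with no filter (adjusted p = 0.0539). Slc2a1 was also lost with quantile normalization (adjusted p = 0.0644), and Pfkfb3 with no filter (adjusted p = 0.0871) and with an added constant of 0.1 (adjusted p = 0.0514).

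At 24 h 3 genes differed, where 28.3% of all genes were called. Hk1 was higher in KD cells by 0.33 (SE 0.0735, adjusted p = 0.0118), Pfkfb3 higher by 0.29 (SE 0.0654, adjusted p = 0.0130) and Pgk1 lower by 0.15 (SE 0.0498, adjusted p = 0.0489). None of the 3 remained called by limma in a fit of only the groups compared (adjusted p = 0.110, 0.0933 and 0.157). In that fit 8.36% of all genes were called, and 3 of the 10 genes had an unadjusted p under 0.05. None remained called without control 24 h replicate 2 either, where fewer of all genes were called too. Without control 24 h replicate 1, Hk1 (adjusted p = 0.0713) and Pgk1 (adjusted p = 0.199) were lost, and without KD 24 h replicate 2 Pgk1 was lost (-0.09, adjusted p = 0.199) as it was with no filter (adjusted p = 0.0784) and quantile normalization (-0.12, adjusted p = 0.271), while Pfkl (-0.15, adjusted p = 0.0420) and Eno1 (-0.28, adjusted p = 0.0223) became called. Without KD 24 h replicate 1 Pfkp became called (0.44, adjusted p = 0.00125, from 0.27 with all libraries).

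The responses of KD and control cells to TGF-β, tested as a difference of differences, were distinguishable for 1 gene at each time. At 8 h the rise of Pfkl was smaller in KD cells by 0.31 (SE 0.0661, adjusted p = 0.0431), where 4.06% of all genes were called. At 24 h Slc2a1 ended lower relative to its untreated level in KD cells by 0.34 (SE 0.0705, adjusted p = 0.0351), where 4.72% of all genes were called. Neither call was firm. Pfkl was lost without control 0 h replicate 1 and without any 1 of the KD 0 h, control 8 h and KD 8 h libraries. Slc2a1 was lost without control 0 h replicate 1, KD 0 h replicate 1 or 2, or control 24 h replicate 1 or 2. Fewer of all genes were called in each of those fits too, so these losses were not particular to Pfkl and Slc2a1. Without KD 24 h replicate 1, more of the 10 genes were called at 24 h, as were more of all genes. The difference was then 0.66 for Pfkp and 0.36 for Hk1, which with all libraries stood at 0.50 (adjusted p = 0.0711) and 0.23 (adjusted p = 0.219). Without control 0 h replicate 2, Pgk1 was called beside Pfkl at 8 h (-0.33, from -0.28 with all libraries). Aldoa was then called beside Slc2a1 at 24 h (0.37, from 0.31). Without KD 24 h replicate 2, Pfkp was called beside Slc2a1 at 24 h (0.34). More of all genes were called in each of these fits. Without control 0 h replicate 1 Ldha became called at 24 h (0.26, adjusted p = 0.0496).

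Across the 12 shRNA libraries the 10 genes did not follow one profile. The mean of their centred log2 levels was highest in the 4 libraries at 8 h, between 0.19 and 0.34, and between -0.19 and -0.02 in the other 8. Single genes correlated with that mean from -0.05 (Hk1) and 0.14 (Pfkp) to 0.92 (Slc2a1), a description over libraries that share 6 groups and in which each gene is part of the mean. Pgk1 and Ldha were the pair most alike (Pearson r = 0.92), and Pgk1 and Pfkp the pair most opposed (r = -0.89). Among 7452 other genes the 5 most like the mean profile were Insig1 (r = 0.97), Arhgap21 (0.97), Clic1 (0.96), Fdft1 (0.96) and Cyp51 (0.96).

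The promoters of the 10 genes were then read in the peak lists, counting a gene where a peak overlapped the 500 bp on either side of any protein-coding start. The background is the 10384 placed genes that passed the level filter in parental cells. For lamin B1, a peak stood at 4 of the 10 genes at 0 h (29.4% of the background), 8 at 8 h (50.4%) and 4 at 24 h (40.8%). For ATAC, a peak was found at 7 at 0 h (60.2% of the background), 9 at 8 h (49.3%) and all 10 at 24 h (88.9%). The lists differ in length, with 4645, 10484 and 7083 lamin B1 peaks and 9782, 10340 and 33811 ATAC peaks, and the part of reads or peak calling in these lengths was not tested.

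Pgk1, Ldha and Pfkfb3 had a lamin B1 peak at all 3 times. The Pgk1 peak at chrX:103381909-103382783 had a MACS score, the caller's confidence in the peak on a logarithmic scale, of 281 at 0 h, higher than or equal to 99.4% of peaks in its list, and the Pgk1 peaks scored 92.3 at 8 h and 60.4 at 24 h. That peak covered both ACGTG matches of the Pgk1 sequence printed above, and its centre lay -93 bp from the start. Ldha peaks scored 105, 56.4 and 79.3 in the order of time, and Pfkfb3 peaks 59.2, 80.2 and 76.3. Slc2a1 had a peak at 8 h and 24 h (62.8 and 58.7). Hk1 (141), Hk2 (72.3), Pfkp (69.9) and Aldoa (52.2) had one at 8 h alone, and Pfkl at 0 h alone (72.0). Eno1 had no lamin B1 peak at a start at any time. The lowest score kept in the lists is about 50, so a peak absent from a list may lie just under it, and scores of different libraries share no scale fixed here.

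Open chromatin was listed at the starts of Slc2a1, Hk1, Hk2, Pfkfb3, Aldoa, Eno1 and Pgk1 at all 3 times. Pfkl and Ldha had an ATAC peak at 8 h and 24 h, and Pfkp at 24 h alone, with scores of 57.9, 65.4 and 152 where each first appeared. The Hk1 peaks of both assays stood at an inner start, with centres between 39674 and 39751 bp from the gene's annotated 5′ end. The ATAC score of the Hk2 start was 107 at 0 h, 127 at 8 h and 464 at 24 h, higher than or equal to 60.8%, 92.5% and 92.2% of peaks in the same list. This 24 h standing was not particular to Hk2. Start peaks of Hk1 (487), Pfkl (470) and Aldoa (446) reached 93.5%, 92.5% and 91.2% at 24 h, and the lowest of the 10 was Pfkp (152, 49.2%).

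**Figure D4:**
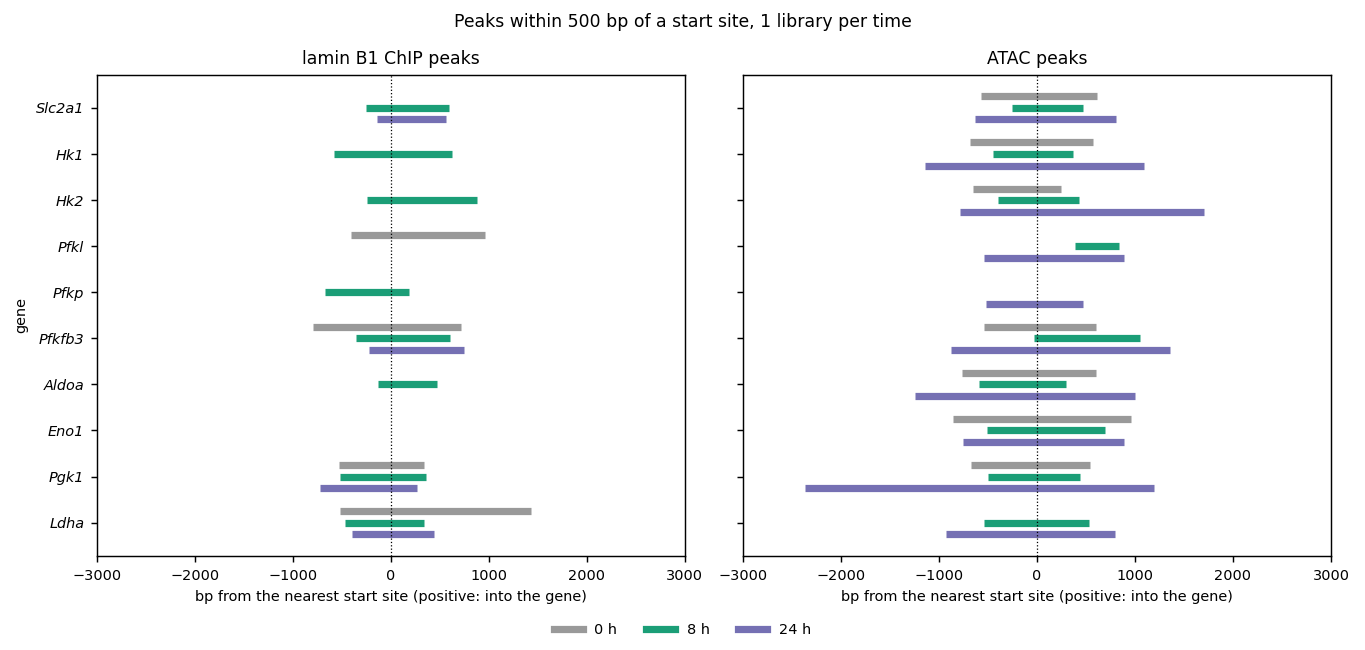
Extent of each lamin B1 ChIP peak (left) and ATAC peak (right) within 500 bp of a start, in bp from the nearest protein-coding start, for each gene and time with 1 library each. Pgk1, Ldha and Pfkfb3 carry a lamin B1 bar at all 3 times, and Eno1 carries none.

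Lactate dehydrogenase B, the other main isozyme, had unlike levels in the 2 tables, and was picked out after its values were seen. Ldhb lay between 8.66 and 12.1 FPKM in the 6 parental libraries and between 0.188 and 0.880 FPKM in the 12 shRNA libraries, and Ldha was above 500 FPKM in all 18. The tables were normalized separately, so their levels are set side by side without a test.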

How the data were processed

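The authors deposited FPKM values per gene and library, without header lines, and lamin B1 ChIP and ATAC peak lists on mm9 with a MACS score. The submitters' processing notes name Bowtie, TopHat and Cufflinks without versions. Reads per library are not in these values, so depth is unknown. Columns were assigned by the order the descriptions name, and the parental replicates carry no number (called a and b).

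The genes and lists were chosen with earlier results of these data known. Levels were analysed as log2(FPKM + 1) where 2 or more libraries of a table reached 1 FPKM (11309 parental and 11450 shRNA genes). The test was limma's moderated one (version 3.58.1, R 4.3.3) with a trend in the prior variance, all libraries of a table in 1 fit, and Benjamini-Hochberg adjustment over all genes tested, called under 0.05. The script was tested on simulated data. Besides the 10 genes, Lmnb1 and Fn1 (checks; another gene fixed as a check is not reported here), the genes named were at most 3 called genes per list and comparison with the largest differences and a group mean of at least 5 FPKM, and the 5 genes with the highest Pearson r to the mean profile over the 12 shRNA libraries among those reaching 10 FPKM. Exceptions, chosen after their values were seen, were Ldhb, the gene copies, Hk1os, Snord47, Cldn3, Slc2a3 and Slc16a3. Peaks were placed with GENCODE M1 in Python 3.11.15 (numpy 2.4.6, pandas 2.3.3). Hi-C data were not analysed here. The following were varied: the added constant (0.1), the filter (none), normalization (quantile, median-ratio), and also fewer groups, each library left out (a lone library is then assumed to vary like the others), a replicate block and other peak rules.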

Additional observations from a re-analysis of the deposited data

Results flagged for a closer look

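In 2 cases the responses of KD and control cells to TGF-β differed by a test of the difference itself (limma). For Pfkl the KD response at 8 h minus the control response was -0.31 (SE 0.0661, adjusted p = 0.0431), with KD cells at 36.3 and 37.2 FPKM at 8 h and control cells at 49.98 and 48.1 FPKM, and with close levels at 0 h (27.3 and 27.5 against 29.7 and 29.1 FPKM). For Slc2a1 the same difference at 24 h was -0.34 (SE 0.0705, adjusted p = 0.0351), and here the groups differed at 0 h, where KD cells had 28.6 and 30.3 FPKM and control cells 23.8 and 25.3 FPKM, more than at 24 h (31.3 and 29.4 against 32.3 and 32.3 FPKM). Both kept their sign in each of the 14 alternatives run and lost their call in 9 and 7 of them, where a smaller share of all genes was called too.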

How the results depend on the processing

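Of 1250 values of single genes under an alternative, 1103 kept direction and side of the threshold, 96 lost and 23 gained a call, and 28 changed sign. The counts of called genes in the 7 comparisons of times stayed within 1.5 times of those reported under every alternative. KD against control cells at 0 h gave 3 calls (19.7% of all genes called), and both this count and the share of all genes varied without 1 library. At 8 h the 8 calls became 5 with no filter (19.8% of all genes called) and 3 with quantile normalization (35.6%). They became fewer without 1 library, as did the calls of all genes. At 24 h the 3 became 0 in a fit of only the groups compared (8.36%, with 3 genes at unadjusted p under 0.05). Without 1 library the 24 h count varied in both directions, as did the share of all genes. The single call of the 8 h response became 0 with no filter and with the replicate block (2 and 3 genes at unadjusted p under 0.05) and 0 to 2 without 1 library, and that of the 24 h response 0 with the replicate block and with only the groups compared (5 and 4 genes at unadjusted p under 0.05) and 0 to 6 without 1 library. The replicate numbers were not taken as pairs in the main fit. Deviations of same-numbered libraries correlated between -0.14 and 0.37 over 15 pairs of groups, with 2 over 0.1, which cannot exclude a pairing. The highest was that between control and KD cells at 24 h. The replicate block also took the call of Pfkfb3 between KD and control at 8 h (adjusted p = 0.0538) and of Pgk1 at 24 h (adjusted p = 0.0627), and no other beyond the responses. Peaks at or above the median score left 5 ATAC genes at 8 h (29.7% of the background), 3 lamin B1 genes at 8 h (32.0%) and 0 at 24 h (24.3%), and the gene's 5′ end alone, added after seeing the data, left 5 ATAC (46.5%) and 5 lamin B1 genes (46.9%) at 8 h, so the 8 lamin B1 genes reported at 8 h fell to near the share of all genes under both rules. The cause of these changes was not tested.

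Signs turned with quantile normalization for Aldoa in parental cells at 8 h (0.091), Pgk1 in control cells at 8 h (-0.052), Ldha in KD against control cells at 0 h (0.0060), 8 h (0.15) and 24 h (-0.0023) and Ldha in the responses at 8 h (0.15) and 24 h (-0.0084). With median-ratio scaling Eno1 turned at 8 h in control (0.12) and KD cells (0.0027). Without 1 library, values ran from -0.021 to 0.084 for Pgk1 in control cells at 8 h, -0.0047 to 0.086 for Slc2a1 in KD cells at 24 h, -0.036 to 0.069 for Pgk1 between KD and control at 0 h, -0.094 to 0.0059 for Pfkp at 8 h, and -0.11 to 0.10 for Hk2 and -0.28 to 0.076 for Eno1 at 24 h. In the responses they ran from -0.037 to 0.086 for Aldoa and -0.079 to 0.039 for Ldha at 8 h, and from -0.057 to 0.048 for Pfkl, -0.11 to 0.010 for Pfkfb3 and -0.043 to 0.32 for Eno1 at 24 h. None of these but Ldha at 8 h between KD and control was called. Of the calls of all genes, 30.2% and 36.1% were higher in control cells at 8 h and 24 h, against 49.0% and 50.9% with median-ratio scaling and 46.0% and 49.99% with quantile normalization, and 33.9% and 39.8% against 49.2% and 49.1%, and 46.0% and 50.1%, in KD cells. Between KD and control at 0 h the share went from 53.8% to 64.9%, and in the 24 h response from 58.0% to 41.8%. Depth is unknown, so no limit from it can be given.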

Other observations

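Of the relatives in the lists, 2 well known ones were barely listed in these cells and were picked out after their values were seen. The glucose transporter gene Slc2a3 was at most 0.0255 FPKM and the lactate exporter gene Slc16a3 at most 0.293 FPKM in all 18 libraries.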
